A study of Mus musculus with 8 samples.

Results

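NODAL signalling transcripts were followed in E14 cells, an established line of mouse pluripotent stem cells, after knockdown of a subunit of CCT, the chaperonin that folds actin and tubulin. The 9 genes were Nodal, Gdf3, Lefty1, Lefty2, Tdgf1, Acvr2b, Foxh1, Smad7 and Skil. They were taken by name, for their roles in the pathway, from 19896 genes listed in both deposited tables. The choice was made with earlier results of these data known. All 9 were found in both tables, and all 9 passed the filter on low values in every comparison.

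The 8 libraries fall into 4 groups of 2. Cct7 KD cells expressed a short hairpin RNA against Cct7 under doxycycline control, and Cct7 KD Ctr cells held the empty vector. Cct5 KD cells carried a hairpin against Cct5, with Cct5 KD Ctr as their own empty-vector control. All 4 groups were selected in puromycin (0.5 µg/ml, 14 days), grown in serum with LIF, and given doxycycline (2 µg/ml, 2 days), so the controls had the drug as well. The series text mentions selected positive clones. The sources used here do not give whether a group is 1 clone, how many hairpins were used, or whether the libraries of a group are separate cultures. Every p-value therefore measures the spread between libraries, which may be technical. The study asked whether CCT holds stem cells back from a totipotent state.

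NODAL and GDF3 are secreted ligands of the TGF-beta family. With the co-receptor CRIPTO (Tdgf1) they bind type II activin receptors, such as ACVR2B, and the type I receptor ALK4 (Acvr1b), which phosphorylates SMAD2 and SMAD3. These join SMAD4 and act on DNA with partners such as FOXH1. Lefty1, Lefty2, Smad7 and Skil are known targets of the pathway that feed back on it: LEFTY proteins block NODAL and its co-receptor outside the cell, SMAD7 blocks the receptor, and SKIL (SnoN) represses SMAD complexes. In mouse embryonic stem cells the pathway is active from ligands the cells make themselves.

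Levels are FPKM as the authors deposited them, that is, the fragments of a gene over its transcript length and the depth of the library, so levels of different genes can be compared per length. Each change is a difference in log2(FPKM + 1), so the changes of genes near 0 are understated. It comes from limma, fitted over all genes that averaged 1 FPKM or more, and a gene is called higher or lower where its p-value, adjusted over all genes tested, is under 0.05. Errors of levels are the SD of 2 libraries. An exact permutation test of 2 libraries against 2 cannot give a two-sided p below 0.333, so it was not used for single genes. In bulk RNA, fewer cells of a type and less RNA per cell cannot be told apart.

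Whole-library features bear on every value below. Depth, recovered from the step between values of genes with 1 annotated transcript, was 18.9 to 23.3 M fragments in 5 libraries and 54.7 M in the first Cct5 KD Ctr library. The Cct5 KD libraries had no such step. For 19881 of the 19896 genes, each of their values is 9/8 of its counterpart in the Cct7 KD library of that number plus a remainder of at least 0, so Cct5 KD is no second test of what Cct7 KD shows. The sources used here do not give how this came about. Total FPKM was 472868 and 471748 in Cct7 KD, against 490071 and 496748 in Cct7 KD Ctr, but 745912 and 744177 in Cct5 KD, against 495553 and 496684 in Cct5 KD Ctr. The median gene had a log2 change of 0.15 in Cct7 KD, where the total was slightly lower than in the control, and 0.68 in Cct5 KD, where it was higher. After median-of-ratios scaling, which sets the typical gene of each library to the same level, those medians were -0.06 and -0.04. Changes are therefore given as deposited and after scaling.

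The targeted transcripts were low in their own knockdowns. Cct7 was 16.1 ± 2.41 FPKM in Cct7 KD and 275 ± 7.86 FPKM in Cct7 KD Ctr (SD, n = 2 each). Cct5 was 72.1 ± 1.88 FPKM in Cct5 KD and 368 ± 0.535 FPKM in Cct5 KD Ctr. In Cct7 KD, however, Cct5 read 280 and 271 FPKM, more than in Cct5 KD. Cct5 is therefore among the 15 genes whose Cct5 KD value is not 9/8 of Cct7 KD plus a remainder of at least 0. The 10 pluripotency markers, Pou5f1, Sox2 and Nanog among them, were all listed in every group. They summed to 522 and 521 FPKM in Cct7 KD, against 2970 and 3016 FPKM in Cct7 KD Ctr. In Cct5 KD the same sum was 921 and 911 FPKM, against 3017 and 2989 FPKM in Cct5 KD Ctr. Of the 10, 9 were called lower in Cct7 KD and Tfcp2l1 did not pass (log2 change 0.02). In Cct5 KD 8 were called lower and 2 higher, Tfcp2l1 (0.78) and Klf4 (0.12), and after scaling Klf4 was lower (-0.68) and Tfcp2l1 did not pass (-0.02). In the scaled remainder 9 were lower and 1 higher, Tfcp2l1 (0.55), beside 43.3% and 41.6% over all genes. Fgf4 held the largest part of the sum in Cct7 KD Ctr, at 1050 and 1051 FPKM, and had 65.5 and 68.0 FPKM in Cct7 KD. The 8 trophoblast markers summed to 219 and 222 FPKM in Cct7 KD, against 54.7 and 55.0 FPKM in Cct7 KD Ctr, of which Krt8 and Krt18 made up most, while Cdx2, Elf5 and Gata3 stayed under 0.5 FPKM in every library that lists them. Tfap2c, another of the 8, went against the sum, with 10.5 and 11.5 FPKM in Cct7 KD, against 27.1 and 26.1 FPKM in Cct7 KD Ctr (log2 change -1.20, called lower), and was called lower in Cct5 KD too (-0.54). In Cct5 KD the trophoblast sum was 257 and 261 FPKM, against 51.1 and 51.9 FPKM in Cct5 KD Ctr. In the scaled remainder, 0 of the 3 trophoblast markers tested were called higher and 3 lower, beside 41.6% and 43.3% over all genes. There Krt8 changed by -0.31, Krt18 by -0.46 and Tfap2c by -1.09. Primitive endoderm markers (8 of 8 listed) summed to 15.5 and 16.4 FPKM in Cct7 KD, against 13.7 and 13.4 FPKM in Cct7 KD Ctr. That sum hid opposite moves. Lama1 held most of it in Cct7 KD Ctr, at 8.33 and 8.18 FPKM. In Cct7 KD Lama1 had 5.81 and 5.94 FPKM (log2 change -0.43, called lower). The 3 others tested, Gata6 (0.84), Pdgfra (0.72) and Dab2 (0.30), were called higher, beside 49.3% over all genes. After scaling Dab2 did not pass (0.10). Fibroblast markers (6 of 8 listed) summed to 12.0 and 12.6 FPKM in Cct7 KD, against 10.3 and 11.1 FPKM in Cct7 KD Ctr. Of the 2 fibroblast markers tested, Pdgfrb was called higher in Cct7 KD (1.43) and Thy1 lower (-0.65). Mesendoderm markers (6 of 7 listed) summed to 1.85 and 1.94 FPKM in Cct7 KD, against 2.19 and 2.13 FPKM in Cct7 KD Ctr. The primitive endoderm sum was 21.9 and 22.9 FPKM in Cct5 KD, against 13.2 and 13.5 FPKM in Cct5 KD Ctr. All 5 of these markers tested in Cct5 KD were called higher, beside 78% over all genes. After scaling 3 were higher and 2 lower, beside 38.5% and 42.7%. In the scaled remainder 2 were tested and both were lower, Dab2 (-0.93) and Lama1 (-0.25), beside 43.3% lower over all genes. The fibroblast sum was 17.2 and 17.9 FPKM in Cct5 KD, against 10.4 and 11.0 FPKM in Cct5 KD Ctr. There too Pdgfrb was called higher (2.19) and Thy1 lower (-0.23), as in the scaled remainder (1.33 and -0.76). The mesendoderm sum was 2.36 and 2.50 FPKM in Cct5 KD, against 2.57 and 2.33 FPKM in Cct5 KD Ctr. The part of these shifts in the values below was not tested.

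In Cct7 KD 8 of the 9 transcripts were lower, and the feedback antagonists outside the cell were lower by far more than the ligand Nodal. Lefty1 was 20.7-fold lower than in Cct7 KD Ctr and Lefty2 9.11-fold, the co-receptor Tdgf1 6.65-fold and the ligand Gdf3 6.25-fold. Foxh1 was 1.78-fold lower, Nodal 1.69-fold, Skil 1.47-fold and Acvr2b 1.35-fold. Of the 9 genes, 0 were called higher and 8 lower, and Smad7 did not pass. Over all 13588 genes tested, 49.3% were called higher and 32% lower. The median log2 change of the 9 genes was -0.76, beside 0.15 for all genes. After scaling, all 9 were called lower, with a median of -0.99 beside -0.06, and 37.4% of all genes were called higher and 43.7% lower.

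**Figure D1:**
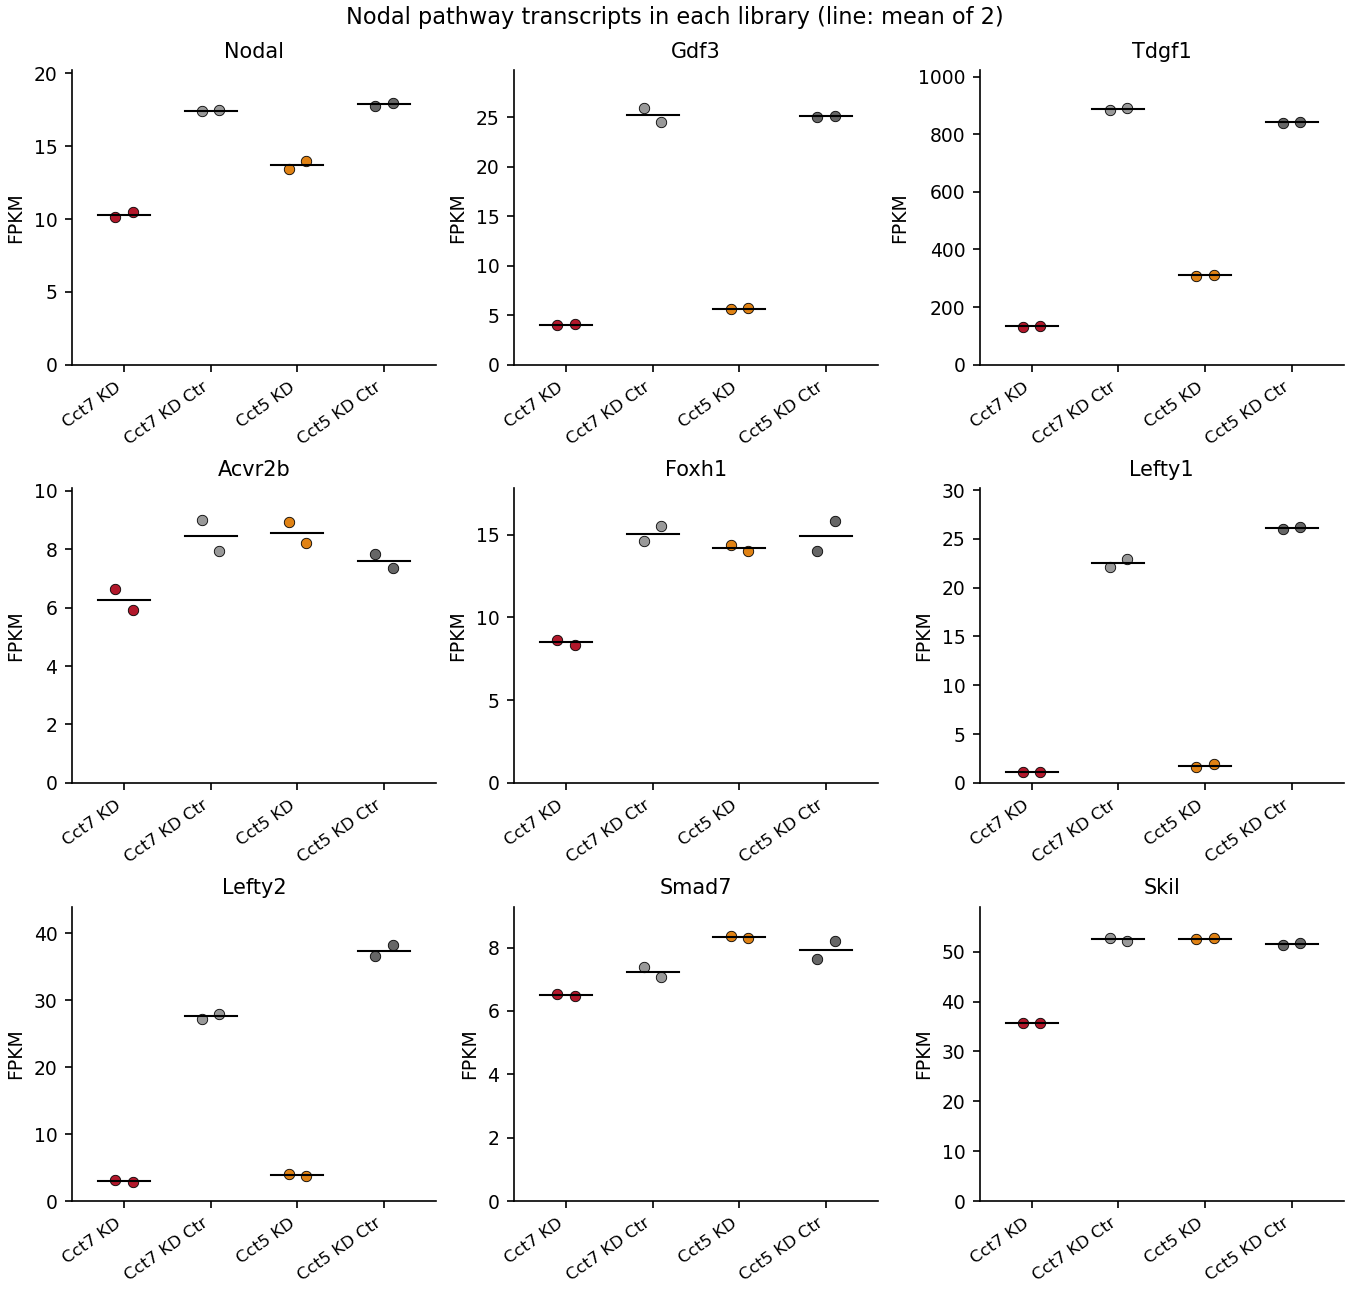
Level of each transcript (FPKM, vertical axes start at 0) in the 8 libraries, with points for libraries and lines for the mean of 2. In Cct7 KD, Lefty1, Lefty2, Gdf3 and Tdgf1 lie far below Cct7 KD Ctr (for Lefty1, 1.07 and 1.11 against 22.1 and 22.9), while Smad7 lies close to it (6.55 and 6.46 against 7.38 and 7.06).

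Nodal (ENSMUSG00000037171, mm10 chromosome 10, 61417972 to 61425338, plus strand) encodes the ligand that gives the pathway its name. Its levels were 10.1 and 10.5 FPKM in the Cct7 KD libraries and 17.4 and 17.5 FPKM in the Cct7 KD Ctr libraries. The groups did not overlap, and Nodal stood at 59.0% of control. Its log2 change was -0.71 with an SE of 0.0393 (limma adjusted p = 2.9e-05), and -0.94 after scaling.

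Gdf3 (ENSMUSG00000030117, chromosome 6, 122605403 to 122610087, minus strand) encodes a ligand that uses the same receptors and co-receptor. It read 3.96 and 4.11 FPKM in Cct7 KD, against 25.9 and 24.5 FPKM in Cct7 KD Ctr. Both knockdown libraries were far below both controls, and Gdf3 stood at 16.0% of control. The log2 change was -2.38 with an SE of 0.0495 (limma adjusted p = 2.1e-06), and -2.60 after scaling. Gdf3 and Nodal differed in how far they fell: within each library the ratio of Gdf3 to Nodal was 0.391 and 0.393 in Cct7 KD, against 1.49 and 1.40 in Cct7 KD Ctr.

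Lefty1 (ENSMUSG00000038793, chromosome 1, 180935022 to 180938400, plus strand) and Lefty2 (ENSMUSG00000066652, chromosome 1, 180893108 to 180899103, plus strand) are neighbouring genes for secreted NODAL antagonists. Near-identical copies can trade reads, so their transcripts were compared. In the GENCODE transcripts of GRCm38, both coding sequences have 1107 bases, of which 1017 (91.9%) are identical and 90 differ. The longest stretch that they share, 140 bases, is shorter than 1 read of 150 bases. Of the 1471 windows of 150 bases in the Lefty1 transcript and the 2324 in that of Lefty2, 0 occurred in another gene, so a full-length read without errors tells them apart.

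Lefty1 had 1.07 and 1.11 FPKM in the Cct7 KD libraries and 22.1 and 22.9 FPKM in the Cct7 KD Ctr libraries. These levels rest on 36 and 34 fragments in Cct7 KD and 802 and 866 fragments in Cct7 KD Ctr, with exact 95% Poisson intervals of 0.749 to 1.48 and 0.770 to 1.55 FPKM in Cct7 KD. Such intervals cover counting error only. Lefty1 thus stood at 4.84% of control, the lowest of the 9 genes. Its log2 change was -3.49 with an SE of 0.0540 (limma adjusted p = 1.2e-06), and -3.68 after scaling.

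Lefty2 had 3.19 and 2.87 FPKM in Cct7 KD (164 and 134 fragments), against 27.2 and 28.0 FPKM in Cct7 KD Ctr (1504 and 1614 fragments). It stood at 11.0% of control, again with no overlap of the groups. The log2 change was -2.83 with an SE of 0.0563 (limma adjusted p = 1.9e-06), and -3.04 after scaling. The ratio of Lefty2 to Lefty1 was 2.98 and 2.58 in Cct7 KD, against 1.23 and 1.22 in Cct7 KD Ctr. The sum of both antagonists was below Nodal in Cct7 KD, at 0.421 and 0.380 of it, and above Nodal in Cct7 KD Ctr, at 2.83 and 2.92 times it. These ratios, like those of other pairs below, do not depend on library scaling. They were chosen after the values were seen and are descriptions with no test.

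Tdgf1 (ENSMUSG00000032494, chromosome 9, 110939603 to 110946158, minus strand) encodes CRIPTO, the co-receptor that NODAL and GDF3 need and a marker of undifferentiated stem cells. It was the most abundant of the 9 transcripts in every group. Its levels were 132 and 135 FPKM in Cct7 KD, against 884 and 891 FPKM in Cct7 KD Ctr. The groups lay far apart, at 15.0% of control, with a log2 change of -2.72 and an SE of 0.0268 (limma adjusted p = 5.1e-07), and -2.97 after scaling. A processed pseudogene, Tdgf1-ps1, looked up after its values were seen, read 19.0 and 19.2 FPKM in Cct7 KD, against 138 and 137 FPKM in Cct7 KD Ctr. Only 5 of 1783 windows of 150 bases in the Tdgf1 transcript (0.280%) occur in it without a mismatch. How far the counting split reads between the 2 loci was not tested.

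RefSeq promoter windows on GRCm38.p6, 250 bases before to 50 after a start, were at hand for Nodal, Tdgf1 and Acvr2b. They were searched on both strands for AATNNACA, a loose form of the FOXH1 site that leaves 2 middle bases open. The palindrome GTCTAGAC and the shorter CAGACA, both bound by SMAD3 and SMAD4, were searched as well. The window of Tdgf1 (chr9:110946109-110946408, minus strand) is printed because it was the only one of the 3 with a match. Its 2 matches to AATNNACA, in capitals, begin 127 and 101 bases before the start. Both have TT at the open bases, and whether FOXH1 accepts TT there was not tested.
Tdgf1 promoter: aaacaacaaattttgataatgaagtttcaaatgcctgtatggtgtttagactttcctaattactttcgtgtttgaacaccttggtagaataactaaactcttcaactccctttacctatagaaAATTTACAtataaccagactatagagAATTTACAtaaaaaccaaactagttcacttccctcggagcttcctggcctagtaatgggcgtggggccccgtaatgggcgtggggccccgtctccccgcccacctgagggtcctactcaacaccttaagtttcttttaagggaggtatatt
Both matches lie in a stretch rich in A and T, and the window as a whole has a GC content of 41.7%, against 54% for Nodal and 73.3% for Acvr2b. AATNNACA occurs in 12.2% of the 32851 mouse promoter windows, GTCTAGAC in 0.213% and CAGACA in 21.0%. Among 56 windows of 41 pathway genes, AATNNACA occurs in 5, GTCTAGAC in 1 and CAGACA in 13. A match is a description of these letters and shows no binding. Enhancers outside the windows, where FOXH1 is known to act on Nodal and the Lefty genes, were not searched.

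Acvr2b (ENSMUSG00000061393, chromosome 9, 119402118 to 119434995, plus strand) encodes a type II receptor. It read 6.62 and 5.94 FPKM in Cct7 KD, against 9.01 and 7.93 FPKM in Cct7 KD Ctr. Both knockdown libraries were below both controls, by less than for the ligands and antagonists, at 74.1% of control. The log2 change was -0.38 with an SE of 0.0810 (limma adjusted p = 0.0067), and -0.60 after scaling. An annotated antisense gene overlaps Acvr2b, and the sources used here do not give whether the counting used strand. Acvr2a, the other type II activin receptor, was higher in Cct7 KD, so that the ratio of Acvr2b to Acvr2a was 0.891 and 0.892 in Cct7 KD, against 2.60 and 2.13 in Cct7 KD Ctr.

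Foxh1 (ENSMUSG00000033837, chromosome 15, 76668225 to 76669948, minus strand) encodes the forkhead factor that brings SMAD complexes to DNA. Its levels were 8.64 and 8.34 FPKM in Cct7 KD, against 14.6 and 15.5 FPKM in Cct7 KD Ctr. It stood at 56.3% of control with no overlap. The log2 change was -0.76 with an SE of 0.0488 (limma adjusted p = 4.9e-05), and -0.99 after scaling. Set against Smad4, the SMAD shared by all branches of the family, Foxh1 was 0.237 and 0.229 of it in Cct7 KD and 0.618 and 0.629 of it in Cct7 KD Ctr.

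Smad7 (ENSMUSG00000025880, chromosome 18, 75367529 to 75395935, plus strand) and Skil (ENSMUSG00000027660, chromosome 3, 31095058 to 31122577, plus strand) encode feedback inhibitors inside the cell. Smad7 read 6.55 and 6.46 FPKM in Cct7 KD, against 7.38 and 7.06 FPKM in Cct7 KD Ctr. The groups did not overlap, yet the log2 change of -0.13 (SE 0.0518) missed the threshold (limma adjusted p = 0.060). After scaling it was -0.35 and passed (limma adjusted p = 0.0015), and in a fit of all 8 libraries it was -0.13 and passed (limma adjusted p = 0.029). The fit of all 8 takes part of its spread from the Cct5 KD libraries. These hold a multiple of Cct7 KD, so that pass is no separate support. Skil read 35.7 and 35.7 FPKM in Cct7 KD, against 52.8 and 52.2 FPKM in Cct7 KD Ctr. It stood at 68.0% of control, with a log2 change of -0.54 and an SE of 0.0267 (limma adjusted p = 1.9e-05), and -0.79 after scaling.

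The order of levels differed between the groups. In Cct7 KD, by mean level, Tdgf1 (133.5 FPKM) and Skil (35.7) were followed by Nodal (10.3), Foxh1 (8.49), Smad7 (6.50), Acvr2b (6.28), Gdf3 (4.04), Lefty2 (3.03) and Lefty1 (1.09). In Cct7 KD Ctr the order was Tdgf1 (887 FPKM), Skil (52.5), Lefty2 (27.6), Gdf3 (25.2), Lefty1 (22.5), Nodal (17.4), Foxh1 (15.1), Acvr2b (8.47) and Smad7 (7.22). Lefty2, Gdf3 and Lefty1 thus stood above Nodal in the controls and below it in the knockdown. The libraries of Smad7 and Acvr2b overlapped in Cct7 KD, and all other neighbours in both orders were separated in their libraries.

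In Cct5 KD the Lefty genes, Gdf3, Tdgf1 and Nodal were also lower than in their control, whereas the direction of Acvr2b, Smad7 and Skil turned with the scaling. Lefty1 was 14.9-fold lower as deposited, Lefty2 9.56-fold, Gdf3 4.42-fold, Tdgf1 2.71-fold and Nodal 1.30-fold. As deposited, 1 of the 9 genes was called higher, 5 lower and 3 did not pass, where 78% of all 14179 genes tested were called higher and 11.3% lower. The median of the 9 genes was -0.36, beside 0.68 for all genes. After scaling all 9 were called lower, with a median of -1.14 beside -0.04, and 38.5% of all genes were called higher and 42.7% lower. Most of each value, however, is a multiple of the Cct7 KD value, except for Tdgf1, where the remainder is slightly larger. The remainder alone, set against the same controls after scaling, was lower in all 9 genes with a median of -1.16 beside -0.01 for all genes, where 41.6% of 11701 genes were called higher and 43.3% lower.

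**Figure D2:**
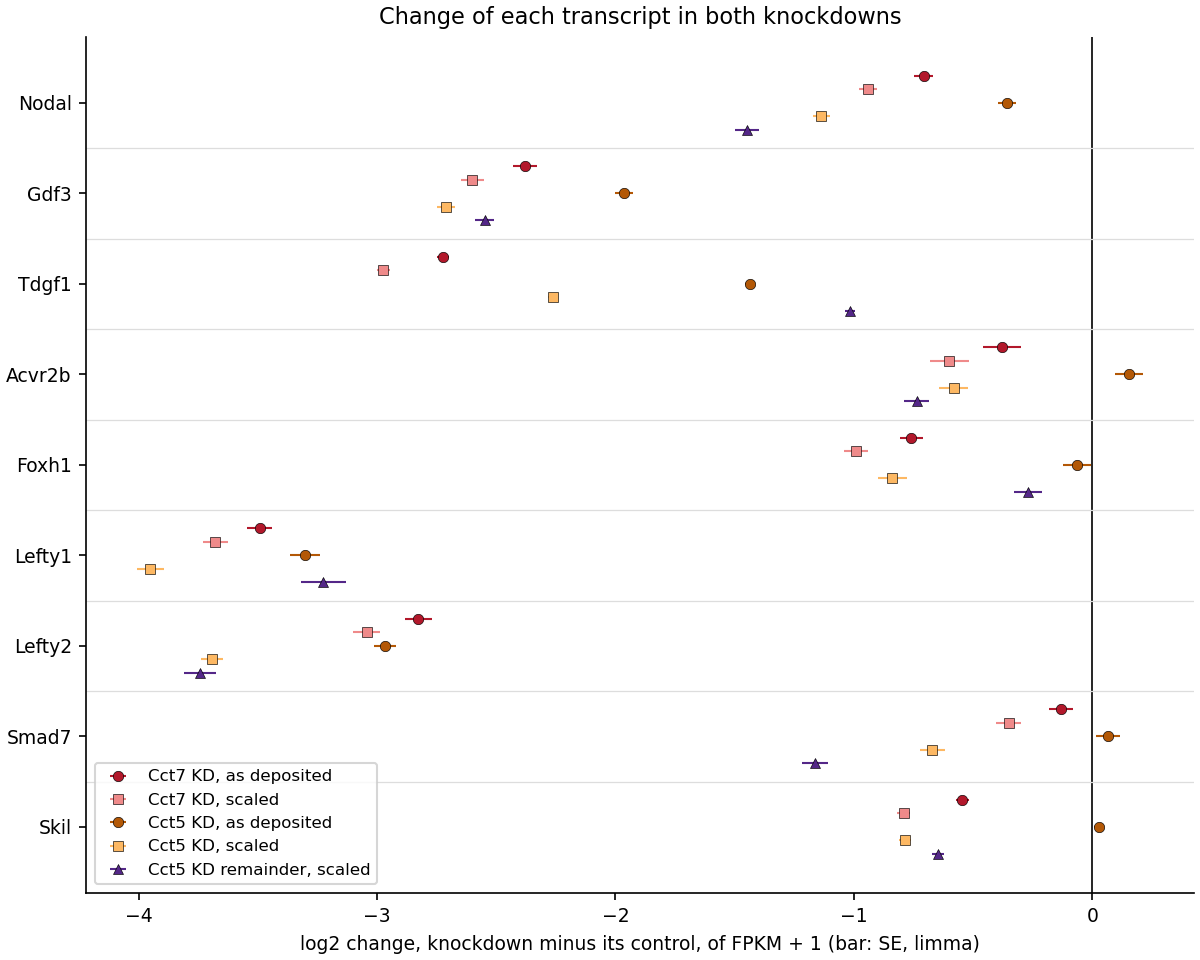
Log2 change of FPKM + 1, knockdown minus its own control, for each transcript as deposited, after median-of-ratios scaling, and for the scaled remainder of Cct5 KD (bars: SE from limma). Scaling moves Acvr2b, Smad7 and Skil in Cct5 KD from above 0 (0.16, 0.07 and 0.03) to below 0 (-0.58, -0.67 and -0.78).

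Among the ligands, Nodal read 13.4 and 14.0 FPKM in Cct5 KD, against 17.7 and 18.0 FPKM in Cct5 KD Ctr. Its groups did not overlap, and its log2 change was -0.36 (limma adjusted p = 0.00022), -1.14 after scaling and -1.45 in the remainder. Gdf3 read 5.61 and 5.75 FPKM in Cct5 KD, against 25.0 and 25.1 FPKM in Cct5 KD Ctr. It stood at 22.6% of control, with a log2 change of -1.97 (limma adjusted p = 4.6e-07), -2.71 after scaling and -2.55 in the remainder.

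The extracellular antagonists were again the lowest relative to control. Lefty1 read 1.61 and 1.89 FPKM in Cct5 KD, against 26.0 and 26.2 FPKM in Cct5 KD Ctr. It stood at 6.72% of control, with a log2 change of -3.30 (limma adjusted p = 4.6e-07), -3.95 after scaling and -3.23 in the remainder. Lefty2 read 4.02 and 3.80 FPKM in Cct5 KD, against 36.6 and 38.2 FPKM in Cct5 KD Ctr. It stood at 10.5% of control, with a log2 change of -2.97 (limma adjusted p = 3.0e-07), -3.69 after scaling and -3.74 in the remainder. The sum of both was 0.420 and 0.406 of Nodal in Cct5 KD, against 3.53 and 3.58 times Nodal in Cct5 KD Ctr. In the remainder alone that ratio was 0.418 and 0.541. The ratio of Lefty2 to Lefty1 was 2.50 and 2.01 in Cct5 KD, against 1.41 and 1.46 in Cct5 KD Ctr. In the remainder it was 1.06 and 0.893, below the control, from 37 and 55 fragments of Lefty1 and 60 and 75 of Lefty2. The part of counting error in this ratio was not tested.

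Tdgf1 had the most nearly equal parts of the Cct5 KD value among the 9 genes. It read 308 and 312 FPKM in Cct5 KD, against 840.3 and 842 FPKM in Cct5 KD Ctr. The multiple of Cct7 KD made up 48.2% and 48.7% of these values, the smallest share among the 9 genes, and the remainder held 159.5 and 160.3 FPKM. The log2 change of Tdgf1 was -1.44 (limma adjusted p = 2.5e-07), -2.26 after scaling and -1.02 in the remainder. Its pseudogene Tdgf1-ps1 read 45.5 and 48.4 FPKM in Cct5 KD, against 117 and 123 FPKM in Cct5 KD Ctr.

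**Figure D3:**
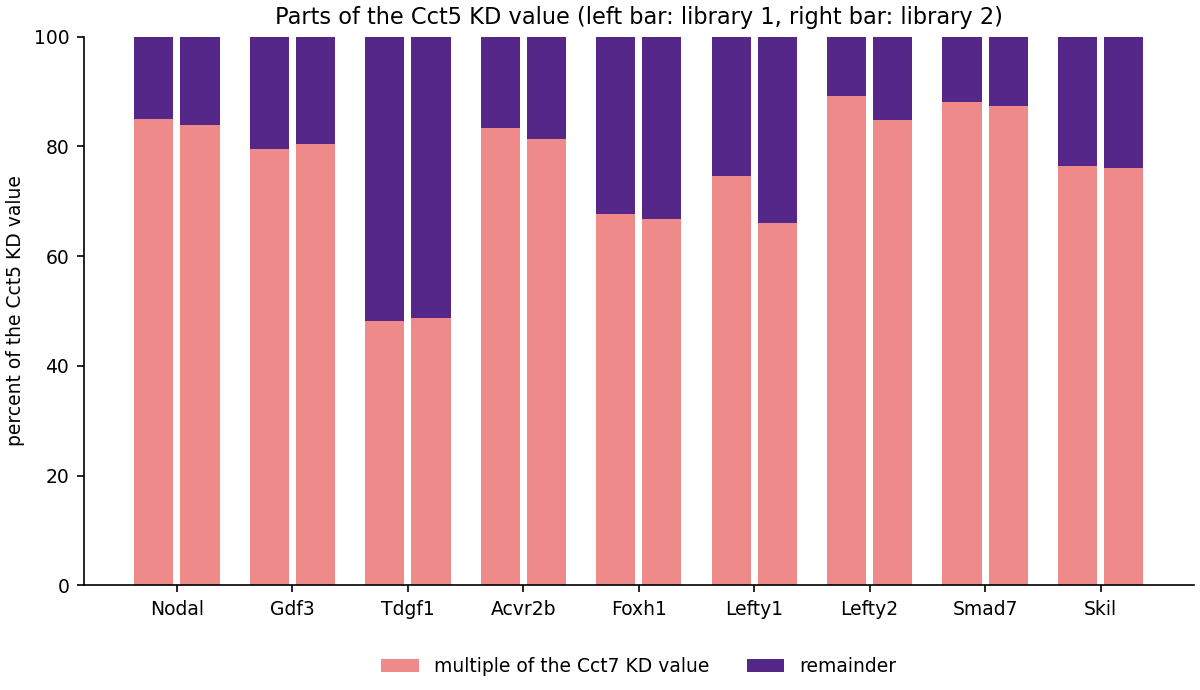
Share of each Cct5 KD value (percent, left bar library 1, right bar library 2) that is 9/8 of its Cct7 KD counterpart, and the remainder. The multiple makes up 48.2% and 48.7% for Tdgf1 and 89.2% and 84.9% for Lefty2.

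The receptor, FOXH1 and the intracellular inhibitors were near their controls as deposited. Scaling turned the direction of Acvr2b, Smad7 and Skil, while the change of Foxh1 was negative both times and passed after scaling. Acvr2b read 8.93 and 8.21 FPKM in Cct5 KD, against 7.84 and 7.34 FPKM in Cct5 KD Ctr. Its log2 change of 0.16 barely passed (limma adjusted p = 0.049) and became -0.58 after scaling and -0.74 in the remainder. As deposited, Acvr2b missed the threshold with no filter on low values (limma adjusted p = 0.066) and in the fit of all 8 libraries (limma adjusted p = 0.093). The call as deposited was lost without the first Cct5 KD library (limma adjusted p = 0.22) and without either control library (limma adjusted p = 0.059 and 0.20). Foxh1 read 14.4 and 14.0 FPKM in Cct5 KD, against 14.0 and 15.8 FPKM in Cct5 KD Ctr. These groups overlapped, the log2 change was -0.06 (limma adjusted p = 0.35), and it was -0.84 after scaling and -0.27 in the remainder. Smad7 read 8.35 and 8.32 FPKM in Cct5 KD, against 7.64 and 8.20 FPKM in Cct5 KD Ctr. Its log2 change was 0.07 (limma adjusted p = 0.26), -0.67 after scaling and -1.16 in the remainder. Skil read 52.5 and 52.7 FPKM in Cct5 KD, against 51.4 and 51.7 FPKM in Cct5 KD Ctr. Its log2 change was 0.03 (limma adjusted p = 0.28), -0.78 after scaling and -0.65 in the remainder.

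Ratios within a library set the transcripts against each other without scaling. Foxh1 over Smad4 was 0.281 and 0.275 in Cct5 KD, against 0.598 and 0.644 in Cct5 KD Ctr. Acvr2b over Acvr2a was 0.929 and 0.935 in Cct5 KD, against 2.33 and 2.16 in Cct5 KD Ctr. Skil over Ski, its closest relative, was 1.55 and 1.46 in Cct7 KD, against 4.19 and 4.46 in Cct7 KD Ctr. In Cct5 KD it was 1.65 and 1.59, against 4.29 and 4.31 in Cct5 KD Ctr. All 3 ratios were lower in every knockdown library than in every control library. Most of each Cct5 KD value of Acvr2b, Foxh1 and Skil is the multiple of Cct7 KD, so Cct5 KD is no second test here. These 3 ratios were not formed in the remainder. Tdgf1 over Acvr2b, co-receptor over receptor, was 19.9 and 22.7 in Cct7 KD, against 98.0 and 112 in Cct7 KD Ctr. In Cct5 KD it was 34.5 and 38.0, against 107 and 115 in Cct5 KD Ctr. In the remainder that ratio was 108 and 105, within or near the controls. Smad7 over Nodal went the other way, at 0.646 and 0.617 in Cct7 KD, against 0.424 and 0.404 in Cct7 KD Ctr. In Cct5 KD it was 0.623 and 0.593, against 0.430 and 0.456 in Cct5 KD Ctr, and in the remainder it was 0.492 and 0.466, closer to the controls.

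**Figure D4:**
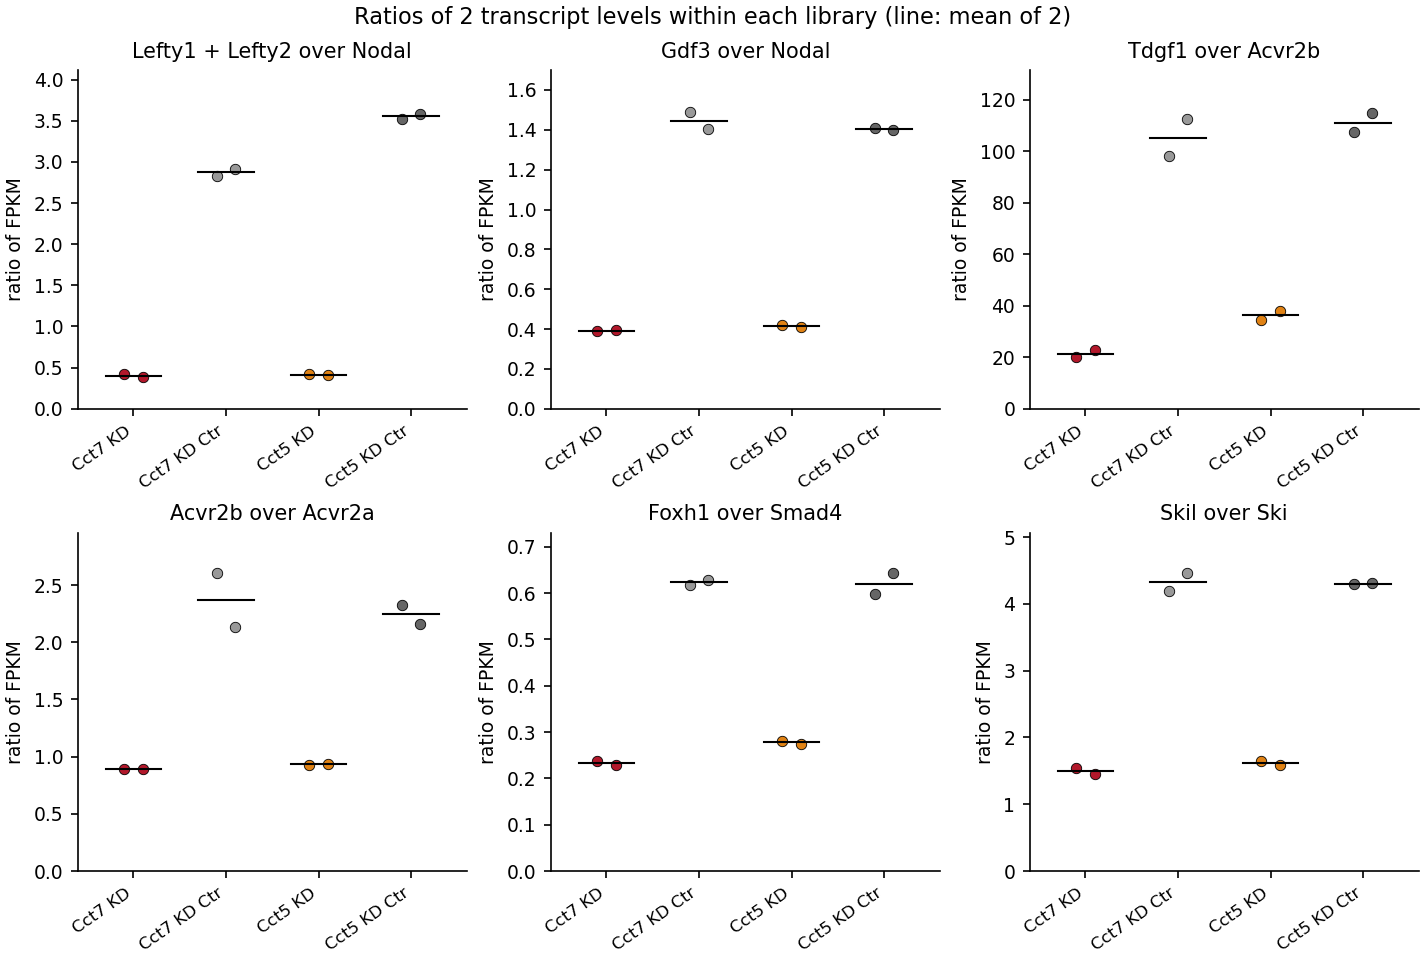
Ratio of FPKM of 2 transcripts within each of the 8 libraries (points; line: mean of 2; axes start at 0). Lefty1 plus Lefty2 over Nodal lies at 0.421 and 0.380 in Cct7 KD and 0.420 and 0.406 in Cct5 KD, all below 2.83, the lowest value in a control library.

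Whether the changes in Cct5 KD and Cct7 KD differ was tested as a difference of differences over all 8 libraries, with Cct5 KD minus its control first. As deposited, 7 of the 9 genes differed, all with a positive difference, where 83.8% of 13840 genes were called and the median gene differed by 0.49. After scaling 4 of the 9 differed, where 23.8% of genes were called and the median was -0.03. Tdgf1 had a positive difference both times, 1.29 as deposited (limma adjusted p = 2.2e-06) and 0.70 after scaling (limma adjusted p = 8.3e-05). Lefty2 had -0.14 as deposited (limma adjusted p = 0.11) and -0.60 after scaling (limma adjusted p = 0.0030). Nodal turned from 0.35 as deposited to -0.20 after scaling (limma adjusted p = 0.021), and Smad7 from 0.20 to -0.32 (limma adjusted p = 0.015). The call of Smad7 as deposited (limma adjusted p = 0.023) was lost in 6 of the 8 fits that leave out 1 library, all but those without the second library of either control group (limma adjusted p = 0.051 to 0.067). Lefty1 missed the threshold as deposited (0.19, limma adjusted p = 0.054) and passed with the library number as a block (limma adjusted p = 0.033), with a pseudocount of 0.1 (limma adjusted p = 0.0090) and without the first Cct5 KD library (limma adjusted p = 0.012). Acvr2b, Foxh1, Gdf3, Lefty1 and Skil did not pass after scaling. Because Cct5 KD holds a multiple of Cct7 KD, such a difference is not one between separate measurements.

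The control groups carry the same empty vector. Of the 9 genes, Lefty2 alone differed between them, with 27.2 and 28.0 FPKM in Cct7 KD Ctr, against 36.6 and 38.2 FPKM in Cct5 KD Ctr, a log2 difference of -0.43 (limma adjusted p = 0.017), and -0.44 after scaling. Over all genes 3.21% were called between the controls. The call of Lefty2 was lost in 5 of the 8 fits that leave out 1 library. Lefty1 read 22.1 and 22.9 FPKM in Cct7 KD Ctr, against 26.0 and 26.2 FPKM in Cct5 KD Ctr, which did not pass (log2 difference -0.20, limma adjusted p = 0.10). Both differences between controls are small beside the 20.7-fold and 9.11-fold lower levels in Cct7 KD.

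The rest of the pathway was called in both directions, in shares near those over all genes, which are no result about the list. A list of 63 genes of NODAL, activin and TGF-beta signalling, sorted by role, had 60 in a table and 42 tested in Cct7 KD, 9 of them the genes above. Of the other 33, 18 were called higher, 11 lower and 4 did not pass, beside 49.3% higher and 32% lower over all genes. After scaling 16 were higher and 13 lower, beside 37.4% and 43.7%. In Cct5 KD, 25 of the other 34 were called higher and 5 lower, beside 78% and 11.3%, and after scaling 17 were higher and 13 lower, beside 38.5% and 42.7%. In the remainder, 10 of the other 29 were higher and 15 lower, beside 41.6% and 43.3%. The counts by role below are smaller still and are descriptions beside the same shares. The genes named here follow a rule given with the processing.

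Of the 4 ligands tested in Cct7 KD, 3 were lower and 1 higher, also after scaling. Inhbb, the subunit of activin B, was 0.977 ± 0.0262 FPKM in Cct7 KD and 5.89 ± 0.117 FPKM in Cct7 KD Ctr (SD, n = 2 each), a log2 change of -1.80, and -1.97 after scaling. It was lower in Cct5 KD too, at 1.35 ± 0.0252 FPKM, against 6.20 ± 0.0505 FPKM in Cct5 KD Ctr, and in the remainder (-1.79). Tgfb1, the ligand of the TGF-beta receptors, rose to 6.73 ± 0.0125 FPKM in Cct7 KD, against 2.77 ± 0.239 FPKM in Cct7 KD Ctr (log2 change 1.04, and 0.83 after scaling). In Cct5 KD it changed by 1.23, and by 0.55 after scaling, but by -0.38 in the remainder.

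The other genes tested among the extracellular antagonists did not follow the Lefty genes. Of 6 genes of this role tested in Cct7 KD, 2 were lower, Lefty1 and Lefty2, 3 were higher, and Ltbp1 did not pass (log2 change 0.02). The role as listed also takes in Ltbp1 and Ltbp3, which bind latent TGF-beta. Fst, of the same list, was below the filter on low values. It had 0.391 and 0.355 FPKM in Cct7 KD, against 0.616 and 0.636 FPKM in Cct7 KD Ctr, lower like the Lefty genes. Dand5, which also blocks NODAL and is named here after its values were seen, had 2.14 and 2.17 FPKM in Cct7 KD, 1.93 times the mean of Cct7 KD Ctr (log2 change 0.57, and 0.42 after scaling). Fstl3, which binds activins, was 3.19 ± 0.0512 FPKM in Cct7 KD and 0.985 ± 0.00255 FPKM in Cct7 KD Ctr (log2 change 1.08, and 0.92 after scaling). Ltbp3, which holds latent TGF-beta, was 3.58 ± 0.198 FPKM in Cct7 KD and 0.608 ± 0.00602 FPKM in Cct7 KD Ctr (log2 change 1.51, and 1.36 after scaling). Fstl3 and Ltbp3 were higher in the remainder of Cct5 KD as well, by 1.79 and 1.64. Cer1, another NODAL antagonist, was not analysed here. Among co-receptors, Tgfbr3 (betaglycan) was 3.02 ± 0.0183 FPKM in Cct7 KD and 0.475 ± 0.0242 FPKM in Cct7 KD Ctr, a log2 change of 1.45, and 1.31 after scaling, opposite to Tdgf1. Eng (endoglin) did not pass in Cct7 KD (log2 change 0.08).

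Receptors for these ligands were higher, apart from Acvr2b. Acvr2a was 7.04 ± 0.546 FPKM in Cct7 KD and 3.59 ± 0.183 FPKM in Cct7 KD Ctr, and Tgfbr1 17.0 ± 0.443 FPKM in Cct7 KD and 9.08 ± 0.231 FPKM in Cct7 KD Ctr. Their log2 changes were 0.81 and 0.84, and 0.60 for each after scaling. Acvr1b, the type I receptor of NODAL, was 14.7 ± 1.21 FPKM in Cct7 KD and 11.1 ± 0.418 FPKM in Cct7 KD Ctr, a log2 change of 0.38 that did not pass after scaling (0.15). In the remainder of Cct5 KD, Acvr2a (-0.02) and Acvr1b (0.06) did not pass and Tgfbr1 was lower (-0.17). The convertases Furin and Pcsk6, which cleave the NODAL precursor, were higher in Cct7 KD by 0.67 and 0.57, after scaling by 0.46 and 0.34, and in the remainder by 0.33 and 0.37.

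In Cct7 KD Smad3 and Smad4 did not follow Foxh1. Smad3 was 7.21 ± 0.221 FPKM in Cct7 KD and 4.38 ± 0.199 FPKM in Cct7 KD Ctr, and Smad4 36.4 ± 0.0663 FPKM in Cct7 KD and 24.2 ± 0.713 FPKM in Cct7 KD Ctr. Their log2 changes were 0.61 and 0.57, and 0.40 and 0.33 after scaling. Smad2 was 13.1 ± 0.0408 FPKM in Cct7 KD and 12.6 ± 0.252 FPKM in Cct7 KD Ctr. Its change of 0.06 did not pass and was -0.18, called lower, after scaling. In the remainder of Cct5 KD, Smad2 (0.24) and Smad4 (0.12) were higher, and Smad3 (-0.14) was lower, as was Foxh1 (-0.27). Trim33, a chromatin partner of SMAD2 and SMAD3, was lower by -0.22, and -0.46 after scaling. Eomes, a T-box partner, was 0.987 ± 0.0787 FPKM in Cct7 KD and 1.55 ± 0.159 FPKM in Cct7 KD Ctr, close to the filter, with a log2 change of -0.36.

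Inhibitors inside the cell were called in both directions. Of 11 tested in Cct7 KD, 6 were lower and 3 higher, beside 32% and 49.3% over all genes, and after scaling 8 were lower and 2 higher, beside 43.7% and 37.4%. Tgif1, a homeodomain repressor of SMAD targets, fell to 53.1 ± 0.453 FPKM in Cct7 KD, against 149 ± 3.15 FPKM in Cct7 KD Ctr, by 1.47 on the log2 scale, and its remainder in Cct5 KD changed by -2.22. Ski, the relative of Skil, rose to 23.8 ± 1.01 FPKM in Cct7 KD, against 12.2 ± 0.628 FPKM in Cct7 KD Ctr (log2 change 0.91, and 0.68 after scaling), opposite to Skil. Pmepa1, a TGF-beta-induced inhibitor that holds SMAD2 and SMAD3, was 5.14 ± 0.332 FPKM in Cct7 KD and 2.01 ± 0.216 FPKM in Cct7 KD Ctr (log2 change 1.03, and 0.84 after scaling).

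Downstream targets were called in both directions too, with 3 of 6 tested higher and 3 lower in Cct7 KD, also after scaling. Otx2, an epiblast factor, was 1.38 ± 0.0248 FPKM in Cct7 KD and 78.0 ± 2.40 FPKM in Cct7 KD Ctr, a log2 change of -5.05, and its remainder in Cct5 KD changed by -5.39. The mesendoderm targets T, Gsc, Lhx1, Foxa2 and Sox17 stayed under 0.5 FPKM in every library mean and were not tested.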

How the data were processed

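Poly(A) RNA of 8 libraries was read as 150 bp pairs from strand-marked libraries, per the labels' protocols. The authors deposited FPKM per gene, 1 table per knockdown. HTSeq and mm10 are named per the submitters' processing notes. Aligner, annotation, gene lengths and versions were not given in the sources used.

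IDs listed more than once were left out (8 in the Cct5 table, 6 in the Cct7 table). Symbols came from GENCODE on GRCm38, the assembly also called mm10. Genes that averaged 1 FPKM or more were fitted in limma 3.58.1 (trended eBayes, R 4.3.3) on log2(FPKM + 1), Benjamini-Hochberg adjusted over all genes, with no scaling in the first place. Each knockdown was fitted with its control, and differences and controls over all 8 libraries. The fit was tested on simulated data. Depth was accepted where at least 95% of values between 0.5 and 20 fragments were whole within 0.05. With 1 fragment worth 0.0183 to 0.0530 FPKM on a 1 kb transcript, it gave whole fragment numbers for the 9 genes in 6 libraries. Depth of the deposited Cct5 KD values is unknown, but their remainder met this rule and gave whole fragment numbers for the 9 genes.

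Members, lists and tests were chosen with earlier results of these data known. Named beside the 9 genes are Acvr1b, Acvr2a, Smad2, Smad3, Smad4, Cer1, Furin, Pmepa1 and, in each role, the 2 other tested genes with the smallest p in Cct7 KD. Some genes and sequences that the rule covers are not reported here. Alternatives were other scalings, no filter, a pseudocount of 0.1, a block by library number, 1 fit of all libraries, the remainder, and leaving out each library.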

Additional observations from a re-analysis of the deposited data

Results flagged for a closer look

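For 7 of the 9 genes the change in Cct5 KD differed from that in Cct7 KD by the test of the difference itself, in log2 units and with Cct5 KD minus its control first. The differences were 1.29 for Tdgf1, 0.70 for Foxh1, 0.57 for Skil, 0.53 for Acvr2b, 0.41 for Gdf3, 0.35 for Nodal and 0.20 for Smad7 (limma, adjusted p under 0.05 in each). The median over all genes tested was 0.49, and 83.8% of them were called. That of Smad7 was lost in 6 of the 8 fits that leave out 1 library. After scaling the 7 differences were 0.70, 0.15, -0.01, 0.02, -0.08, -0.20 and -0.32 in the same order. Those of Foxh1, Skil, Acvr2b and Gdf3 then missed the threshold, those of Nodal and Smad7 passed in the opposite direction, and that of Tdgf1 passed in the same direction. Total FPKM in Cct5 KD, 745912 and 744177 against 495553 and 496684 in Cct5 KD Ctr, moves with these differences, and its part in them was not tested.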

How the results depend on the processing

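In Cct7 KD the 8 lower calls kept their direction and their side of the threshold in every alternative run, and Smad7 passed after median-of-ratios scaling and in the fit of all 8 libraries. In Cct5 KD against its control, log2 changes turned sign for Acvr2b (-0.58 after median-of-ratios scaling, -0.37 after scaling to a common FPKM total, -0.74 in the remainder), Smad7 (-0.67, -0.46 and -1.16) and Skil (-0.78, -0.55 and -0.65), and Foxh1 ranged from -0.15 to 0.018 with 1 library left out, positive without the second Cct5 KD Ctr library. Differences between the knockdowns turned to -0.20 for Nodal, -0.075 for Gdf3, -0.16 for Lefty1, -0.32 for Smad7 and -0.0053 for Skil after median-of-ratios scaling, and the number of the 9 genes that differed was 4 in place of 7. Between the controls, Gdf3 was -0.0084 after that scaling and ranged from -0.033 to 0.047 with 1 library left out, and Foxh1 ranged from -0.065 to 0.097; neither passed in any of these. The count between controls was 0 to 1 with 1 library left out, and calls over all genes 0 to 130 in place of 444. The cause was not tested. Library numbers did not pair a knockdown with its control (correlation of same-numbered deviations -0.04 in Cct7 KD and -0.01 in Cct5 KD), and with the number as a block 8 of the 9 genes were called in Cct7 KD, as without it. Numbers do tie Cct5 KD to Cct7 KD, since each Cct5 KD value holds a multiple of the same-numbered one, and with the block 8 of the 9 differences between the knockdowns passed in place of 7, with Lefty1 added. That count was also 8 with a pseudocount of 0.1, and 6 to 7 with 1 library left out. Of 405 single values under the alternatives, 357 kept direction and side of the threshold, 19 turned sign, 11 passed newly and 18 no longer passed. Depth limits Lefty1 most, at 34 to 36 fragments in Cct7 KD, and 37 and 55 in the remainder of Cct5 KD.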
